A study of Mus musculus with 7 samples.

Results

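The amino acid transporter genes examined here were the members of the solute carrier families Slc1a, Slc3a, Slc7a, Slc36a, Slc38a and Slc43a, together with Slc6a18, Slc6a19, Slc6a20a, Slc6a20b and Slc16a10. They were taken by gene symbol from the protein-coding rows of the deposited expression table, which gave 42 of its 18797 genes. The symbol pattern also took in Slc7a6os, named for its place on the strand opposite its neighbour Slc7a6 and not a transporter, and Slc43a3, whose product is known as a nucleobase carrier. Of the 42 genes, 39 had enough reads to be tested among 15394 genes. The other 3, Slc7a3, Slc7a15 and Slc38a11, stayed at or below 0.616 CPM in every kidney. CPM values are read counts brought to a common library size, here with TMM factors (trimmed mean of M-values).

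Whole kidneys of 4 male Hs3st3a1;3b1 DKO mice (double knockout), replicates 1 to 4, were compared with whole kidneys of 3 wild-type (WT) male mice, replicates 1, 2 and 4. The targeted genes encode 3-O-sulfotransferases of heparan sulfate, a sugar chain of cell surfaces and basement membranes, and the title of the study concerns the size of the kidney and the structure of its glomeruli. Each library bears its own animal number. Age, strain and the deleted parts of the genes are absent from the labels.

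Amino acids that pass the glomerular filter are recovered in the proximal tubule. Carriers of the luminal brush border take them up, mostly with sodium or in exchange for other amino acids, and carriers of the basolateral membrane pass them to the blood. Several of these carriers are pairs of a heavy chain (Slc3a1 or Slc3a2) and a light chain (an Slc7a protein), and in mouse and human the loss of Slc3a1 or Slc7a9 causes cystinuria.

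The libraries held 18330929 to 24259400 reads on genes and added sequences. Reads of Hs3st3a1 numbered 1, 0, 0 and 3 in DKO replicates 1 to 4, against 29, 13 and 12 in WT replicates 1, 2 and 4. Hs3st3b1 kept 3.69 ± 1.75 CPM in DKO (SD, n = 4) and had 4.32 ± 1.26 CPM in WT (SD, n = 3), and with the deleted part not given its row does not check the label. As a check of the tissue label, 9 markers of the first proximal segments were summed, and the sum lay between 14016 and 15411 CPM in DKO and between 13930 and 14937 CPM in WT. Summed markers of adrenal cortex stayed at or below 4.04 CPM in DKO and 3.31 CPM in WT, with 2 of 4 at 0 in every kidney. Markers of fat tissue summed to 295 to 858 CPM in DKO and 138 to 667 CPM in WT. Red cell markers summed to 214 to 425 CPM in DKO and 116 to 897 CPM in WT. In both sums WT replicate 2 was the lowest of all kidneys. In such bulk tissue, fewer cells of a type and less RNA per cell cannot be told apart.

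Most of the transporter genes had a higher mean in DKO kidneys, but the differences of single genes did not pass the test over all genes. The log2 fold change of DKO over WT was positive in 34 of 39 tested members and in 53.2% of all genes, and its median was 0.34 over the members and 0.036 over all genes. In the quasi-likelihood test of edgeR 0 members had an adjusted p under 0.05, and so did 0% of all genes. At an unadjusted p under 0.05 there were 8 members with higher levels in DKO (all genes 9.86%) and 0 with lower levels (all genes 11.3%). These 8 were Slc36a2, Slc38a3, Slc38a9, Slc7a6, Slc1a2, Slc7a8, Slc36a4 and Slc38a2.

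DESeq2, run on the same counts, called Slc38a3 (adjusted p 0.0244) and Slc36a2 (adjusted p 0.0346), both higher in DKO, where it called 1.49% of all genes higher and 2.51% lower. Both calls depended on single libraries. Without WT replicate 4 the DESeq2 adjusted p was 0.203 for Slc38a3 and 0.242 for Slc36a2. It was 0.0517 for Slc38a3 without WT replicate 1 and 0.0808 for Slc36a2 without WT replicate 2, and DESeq2 gave neither gene an adjusted p without DKO replicate 2. With limma-voom 0 members were called. Ranges of adjusted p over the alternatives, given below, are over 13 other fits of these counts and leave out the DESeq2 fits with a library removed.

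**Figure D1:**
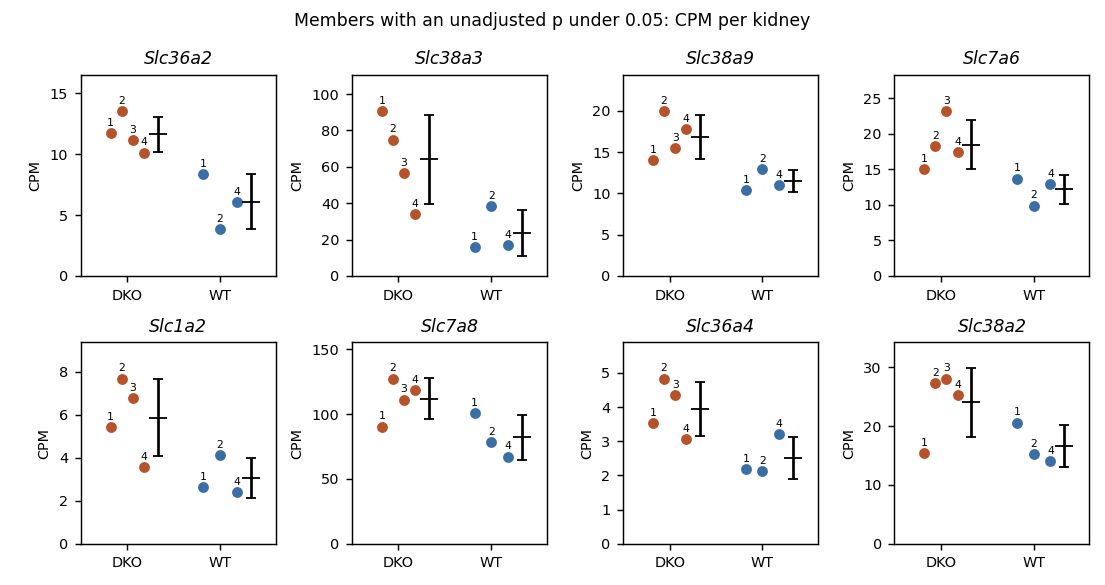
Level in CPM (vertical axes, from 0) of the 8 members with an unadjusted edgeR p under 0.05 in each DKO (n = 4) and WT (n = 3) kidney. Points are kidneys numbered by replicate, and the black bar gives the mean with its SD. DKO and WT values stand apart in Slc36a2, Slc38a9 and Slc7a6 and overlap in the other panels.

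In 4 tested members every DKO kidney lay above every WT kidney (8.34% of all genes), and in 0 members every DKO kidney lay below (9.04% of all genes). The 4 were Slc36a2, Slc38a9, Slc7a6 and Slc7a6os. The untested Slc7a15 had 7, 9, 6 and 3 reads in DKO replicates 1 to 4, and 1, 0 and 2 in WT replicates 1, 2 and 4. Rows kept in the deposited table had a largest count of at least 6, so Slc7a15 entered only through its DKO reads. Its lack of overlap was therefore not counted. The median member level, taken in each kidney as a log2 difference from the WT mean, was 0.29, 0.53, 0.46 and 0.29 in DKO replicates 1 to 4, and 0.077, 0.067 and -0.16 in WT replicates 1, 2 and 4. On this scale each DKO kidney stood above each WT kidney. The same median over all genes is not given, and no trend on gene length was removed from these values. With such a trend removed, the median log2 fold change of the members was 0.18 in place of 0.34.

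Markers of other cell types also differed between the groups. Summed markers of the thick ascending limb were at 4665 to 7195 CPM in DKO and 6487 to 10303 CPM in WT. At an unadjusted p under 0.05, 4 of 6 were lower in DKO (11.3% of all genes). Podocyte markers summed to 99.8 to 128 CPM in DKO and 84.5 to 96.1 CPM in WT, without overlap. Higher levels in DKO at that p were seen in 3 of 5 (9.86% of all genes). Of 5 macrophage markers 2 were lower at that p, with sums of 51.8 to 104 CPM in DKO and 95.9 to 169 CPM in WT. Of 4 tested T cell markers 2 were lower, with sums of 6.71 to 10.3 CPM in DKO and 8.26 to 12.7 CPM in WT. With a trend on exon length and GC content removed, the edgeR unadjusted p was 0.111 for Nphs1 and 0.075 for Synpo (podocyte). It was 0.0842 for Cldn10 (thick ascending limb) and 0.119 for C1qa (macrophage). For Podxl, Umod, Kcnj1, Cldn16, C1qb, Cd3d and Cd3g it stayed under 0.05. The part of these cell type markers in the levels of the transporters was not tested.

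Transporters of the luminal membrane take amino acids out of the filtrate. Of 10 such members 9 had a positive log2 fold change (53.2% of all genes), with a median of 0.31. In 1 of them the unadjusted p was under 0.05, with higher levels in DKO (9.86% of all genes). That member was Slc36a2 (chr11:55158470-55185077, minus strand, GRCm38), the proton-coupled carrier of glycine, proline and alanine. It measured 11.8, 13.6, 11.2 and 10.1 CPM in DKO replicates 1 to 4, and 8.36, 3.86 and 6.06 CPM in WT replicates 1, 2 and 4. The lowest DKO kidney thus lay above the highest WT kidney. The means were 11.6 ± 1.44 CPM in DKO (SD, n = 4) and 6.09 ± 2.25 CPM in WT (SD, n = 3). Its log2 fold change was 0.93 (SE 0.25), with an edgeR unadjusted p of 0.00309 and an adjusted p of 0.163 (0.0346 to 0.494 over the alternatives). Its neighbour on chromosome 11 and closest relative among the members, Slc36a1, was at 14 ± 2.08 CPM in DKO (SD, n = 4) and 12 ± 2.66 CPM in WT (SD, n = 3), with overlapping kidneys. For the third gene of that locus, Slc36a3, 0 reads were counted in every kidney.

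The parts of the cystine and cationic amino acid exchanger and both Slc6a carriers of neutral amino acids were among the abundant luminal members. Slc7a9, the light chain b0,+AT, was at 399, 359, 402 and 251 CPM in DKO, and at 287, 362 and 272 CPM in WT (log2 fold change 0.20, SE 0.20). Its heavy chain rBAT, encoded by Slc3a1, was at 233, 212, 247 and 126 CPM in DKO, and at 95.8, 223 and 84.4 CPM in WT (log2 fold change 0.61, SE 0.36). The groups overlapped in both, with DKO replicate 4 below WT replicate 2. Without WT replicate 2 the log2 fold change of Slc3a1 was 1.17, and without WT replicate 4 it was 0.36. Slc3a1 shares 601 exon bases, 26.5% of its exon length, with the opposite-strand gene Prepl, and reads from them cannot be assigned by strand in these unstranded libraries. Prepl itself was at 36.2 ± 3.88 CPM in DKO (SD, n = 4) and 34.2 ± 2.69 CPM in WT (SD, n = 3).

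Slc6a19, the main carrier of neutral amino acids in the brush border (B0AT1), was at 322, 278, 248 and 166 CPM in DKO, and at 172, 217 and 267 CPM in WT. Slc6a18, its neighbour on chromosome 13 and a carrier of glycine and other neutral amino acids in mouse, was at 320.2, 242, 304 and 187 CPM in DKO, and at 149, 310.1 and 194 CPM in WT. Neither pair of groups stood apart, and the log2 fold changes were 0.22 (SE 0.24) and 0.27 (SE 0.27). Slc1a1, the glutamate and aspartate carrier EAAC1, was at 52.8 ± 5.51 CPM in DKO (SD, n = 4) and 41.3 ± 12.8 CPM in WT (SD, n = 3). It shares 2631 exon bases (31.9%) with 4430402I18Rik on the opposite strand.

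Slc7a13, the light chain AGT1 that pairs with rBAT in the last proximal segment of the mouse, was the luminal member with a negative log2 fold change (-0.49, SE 0.39). It measured 132, 246, 152 and 245 CPM in DKO, and 225, 459 and 134 CPM in WT. The direction rested on WT replicate 2, which had the highest value of all kidneys, and without it the log2 fold change was 0.10. The 7 markers of the last proximal segment summed to 539, 884, 489 and 622 CPM in DKO, and to 412, 841 and 344 CPM in WT, so that WT replicate 2 was also the highest WT kidney in that sum. Among these markers, Cyp7b1 and Slc22a30 are also in the list of androgen-responsive genes used below. Aadat alone gave 339 CPM in DKO replicate 2 and 242 CPM in WT replicate 2. The part of these markers in the levels of Slc7a13 and Slc3a1 was not tested.

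Slc6a20a and Slc6a20b form a pair of near copies on chromosome 9, both on the minus strand. Slc6a20a (chr9:123634770-123678885) encodes the sodium-coupled carrier of proline and other imino acids. The coding sequences, taken from GENCODE M21 transcripts on GRCm38, could be aligned over 1764 bases with 92.8% identity, and the longest run without a difference had 321 bases. A window of 120 bases from this alignment shows where reads of the pair can and cannot be told apart. Capitals mark the 12 bases that differ, and the lower-case stretch after the last capital is the start of the long identical run.
Slc6a20b: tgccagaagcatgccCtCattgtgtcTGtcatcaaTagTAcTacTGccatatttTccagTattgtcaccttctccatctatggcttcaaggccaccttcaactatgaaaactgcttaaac
Slc6a20a: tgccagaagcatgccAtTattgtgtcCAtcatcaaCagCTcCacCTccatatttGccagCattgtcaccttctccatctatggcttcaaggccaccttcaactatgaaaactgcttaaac

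Values of both genes are therefore uncertain to the extent that reads from identical stretches were split between them. Slc6a20b was at 125, 159, 143 and 118 CPM in DKO, and at 87.1, 137 and 77.3 CPM in WT, with a log2 fold change of 0.44 (SE 0.21). Slc6a20a was at 17.9, 17.2, 23.2 and 9.31 CPM in DKO, and at 5.81, 15.9 and 3.93 CPM in WT, with a log2 fold change of 0.98 (SE 0.48). In both genes WT replicate 2 was the one WT kidney within the DKO range. Without WT replicate 2 the log2 fold changes were 0.72 for Slc6a20b and 1.79 for Slc6a20a, each with an edgeR adjusted p of 0.112, in a range over the alternatives of 0.112 to 0.628 for Slc6a20b and 0.112 to 0.632 for Slc6a20a. Slc6a20b also shares 1800 exon bases (21.1%) with the opposite-strand gene Sacm1l, which was at 144 ± 22.4 CPM in DKO (SD, n = 4) and 138 ± 12.2 CPM in WT (SD, n = 3).

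**Figure D2:**
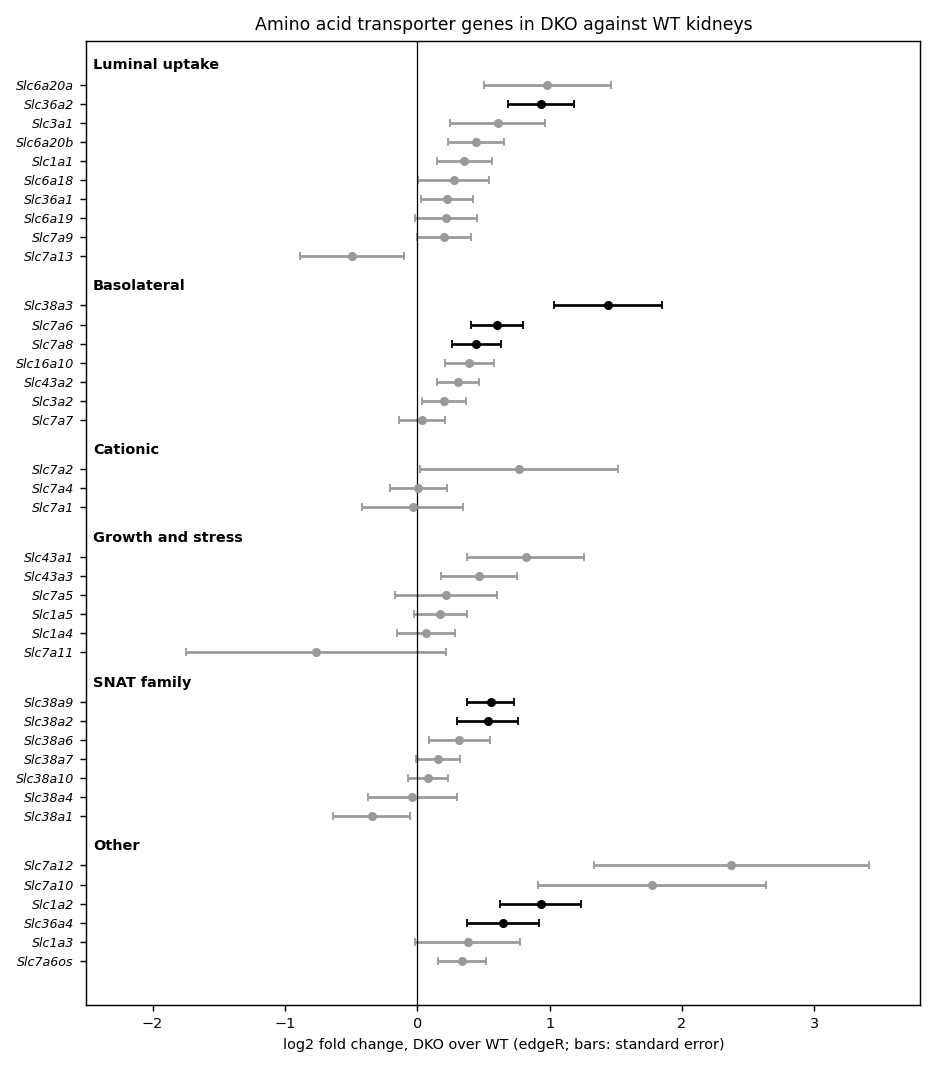
The log2 fold change of DKO over WT from edgeR (horizontal axis) with its standard error for the 39 tested members, grouped by role. Black points had an unadjusted p under 0.05 and grey points did not. Of the 39 points 34 lie right of 0, and Slc7a12 and Slc7a10 lie farthest right with wide errors.

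On the basolateral side all 7 members had positive log2 fold changes (53.2% of all genes), with a median of 0.39. At an unadjusted p under 0.05, 3 were higher in DKO (9.86% of all genes). Slc38a3 (chr9:107650634-107669530, minus strand), the glutamine carrier SNAT3 that supplies glutamine for ammonia formation in proximal cells, differed most among them. It measured 90.8, 75, 56.7 and 33.9 CPM in DKO replicates 1 to 4, and 15.7, 38.3 and 16.9 CPM in WT replicates 1, 2 and 4. DKO replicate 4 lay just below WT replicate 2, and the other DKO kidneys lay above all WT kidneys. The means were 64.1 ± 24.5 CPM in DKO (SD, n = 4) and 23.7 ± 12.7 CPM in WT (SD, n = 3), a 2.71-fold difference. For Slc38a3 edgeR gave a log2 fold change of 1.44 (SE 0.41), with an edgeR unadjusted p of 0.00653 and an adjusted p of 0.163 (0.0244 to 0.494 over the alternatives). Leaving out single kidneys moved it between 1.20 and 1.96.

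Slc7a6 (chr8:106168857-106198706, plus strand), the light chain y+LAT2 of an exchanger of cationic against neutral amino acids, was at 15, 18.3, 23.2 and 17.4 CPM in DKO, and at 13.7, 9.9 and 12.9 CPM in WT. The groups did not overlap, although DKO replicate 1 was only a little above WT replicate 1. Its difference was 0.60 on the log2 scale (SE 0.19), with an edgeR unadjusted p of 0.0103 and an adjusted p of 0.164 (0.0843 to 0.494 over the alternatives). Slc7a8, the light chain LAT2 for neutral amino acids, was at 90.3, 127, 111 and 118 CPM in DKO, and at 101, 78.2 and 67.2 CPM in WT. Only WT replicate 1 reached into the DKO range, and the log2 fold change was 0.44 (SE 0.19, edgeR adjusted p 0.21).

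The other basolateral members differed less. Slc3a2, the heavy chain 4F2hc that LAT2 and both y+LAT light chains need, was at 243, 238, 218 and 213 CPM in DKO, and at 196, 235 and 163 CPM in WT (log2 fold change 0.20, SE 0.17). Slc7a7, the light chain y+LAT1, was at 179.9, 184, 159 and 141 CPM in DKO, and at 151, 197 and 139 CPM in WT. Its log2 fold change of 0.03 (SE 0.18) was smaller than its error. Slc43a2, the uniporter LAT4, was at 91.6 ± 11.4 CPM in DKO (SD, n = 4) and 74.1 ± 6.82 CPM in WT (SD, n = 3), with a log2 fold change of 0.31 (SE 0.16). Slc16a10, the aromatic amino acid carrier TAT1, was at 11.7 ± 1.7 CPM in DKO (SD, n = 4) and 8.93 ± 1.19 CPM in WT (SD, n = 3). Kidneys of the groups overlapped in both.

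Among the other SNAT family carriers of neutral amino acids, 5 of 7 tested had positive log2 fold changes (53.2% of all genes). The median of the 7 was 0.16. Slc38a9 (chr13:112660751-112738749, plus strand), a lysosomal protein that reports arginine to the mTORC1 kinase, was at 14, 20, 15.5 and 17.8 CPM in DKO, and at 10.4, 13 and 11 CPM in WT. Every DKO kidney was above every WT kidney. For Slc38a9 the log2 fold change was 0.55 (SE 0.18), with an edgeR unadjusted p of 0.0101 and an adjusted p of 0.164 (0.0861 to 0.638 over the alternatives). With a trend on exon length and GC content removed it was 0.19.

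Slc38a2, the SNAT2 carrier that many cells induce when amino acids are short, was at 15.4, 27.4, 28.1 and 25.3 CPM in DKO, and at 20.6, 15.3 and 14 CPM in WT (log2 fold change 0.53, SE 0.23, edgeR adjusted p 0.22). DKO replicate 1 lay within the WT range and the other DKO kidneys above it. The most abundant of these carriers, Slc38a10, was at 81.1, 79.3, 71.9 and 72.6 CPM in DKO, and at 64.1, 84.1 and 68.2 CPM in WT, a difference within the spread of either group. Slc38a7, a lysosomal glutamine carrier, was at 16 ± 2.4 CPM in DKO (SD, n = 4) and 14.4 ± 0.636 CPM in WT (SD, n = 3). Slc38a6 was at 5.52 ± 1.23 CPM in DKO (SD, n = 4) and 4.43 ± 0.355 CPM in WT (SD, n = 3), and its longest transcript shares 3240 aligned bases at 98.5% identity with Noct, so its reads are uncertain. Slc38a1 had a log2 fold change of -0.35 (SE 0.29) and Slc38a4 one of -0.04 (SE 0.33), both at means of at most 2.08 CPM in either group.

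Carriers known from brain and other tissues were joined with a few members that have no other group. Log2 fold changes were positive in 6 of 6 tested (53.2% of all genes), with a median of 0.79. Slc1a2, the glutamate carrier GLT-1, was at 5.41, 7.67, 6.77 and 3.55 CPM in DKO, and at 2.65, 4.13 and 2.41 CPM in WT. DKO replicate 4 lay below WT replicate 2, and the other DKO kidneys lay above all WT kidneys. For Slc1a2 the log2 fold change was 0.93 (SE 0.31), with an edgeR unadjusted p of 0.0113 and an adjusted p of 0.164 (0.0726 to 0.494 over the alternatives). The 4 neuron markers summed to 1.63 to 2.9 CPM in DKO and 1.8 to 2.13 CPM in WT, with 1 of them at 0 in all kidneys.

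Slc36a4, a carrier of proline and tryptophan, was at 3.52, 4.83, 4.36 and 3.06 CPM in DKO, and at 2.18, 2.12 and 3.22 CPM in WT (log2 fold change 0.65, SE 0.27, edgeR adjusted p 0.212). WT replicate 4 lay above DKO replicate 4. Slc1a3, the glutamate carrier GLAST, was at 7.13, 9.56, 10.8 and 9.79 CPM in DKO, and at 13.2, 3.71 and 4.54 CPM in WT. WT replicate 1 was its highest kidney of all, and without it the log2 fold change was 1.16, against 0.38 with all kidneys and 0.066 without WT replicate 2. Slc7a10, a carrier of small neutral amino acids, was at 2.73, 0.735, 0.666 and 0.326 CPM in DKO, and at 0.727, 0.159 and 0.0946 CPM in WT. Its log2 fold change of 1.77 (SE 0.86) rested on few reads, and without DKO replicate 1 it was 0.80. Slc7a10 shares 377 exon bases (17.9%) with the opposite-strand gene Lrp3. Summed markers of fat tissue were at 858, 364, 306 and 295 CPM in DKO, and at 667, 138 and 493 CPM in WT. Their part in the level of Slc7a10 was not tested. Slc7a6os was at 8.47 ± 1.1 CPM in DKO (SD, n = 4) and 6.7 ± 0.559 CPM in WT (SD, n = 3).

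Slc7a12 (chr3:14480697-14505830, plus strand), a small neutral amino acid carrier known for higher expression in female than in male mouse kidney, had the largest log2 fold change of the tested members and the widest error. It measured 18, 13.3, 18.3 and 3.8 CPM in DKO replicates 1 to 4, and 0.311, 6.72 and 0.757 CPM in WT replicates 1, 2 and 4. DKO replicate 4 lay below WT replicate 2, while the other DKO kidneys lay above all WT kidneys. The estimate was 2.37 on the log2 scale (SE 1.04), with an edgeR unadjusted p of 0.0595 and an adjusted p of 0.254 (0.112 to 0.59 over the alternatives). It was 4.60 without WT replicate 2 and 1.92 without WT replicate 4.

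Carriers of cationic amino acids were scarce apart from Slc7a4, and their median log2 fold change was 0.0056 over 3 tested members. Slc7a4, for which no transport function is established, was at 17.1, 23.4, 17.3 and 21.7 CPM in DKO, and at 25.2, 20.4 and 13.8 CPM in WT. The DKO kidneys lay within the WT range. Slc7a1 (CAT1) was at 1.41, 2.57, 1.54 and 4 CPM in DKO, and at 2.02, 2.28 and 3.03 CPM in WT. Slc7a2 (CAT2) was at 0.484, 4.15, 5.18 and 1.75 CPM in DKO, and at 2.49, 2.06 and 0.521 CPM in WT, so that single kidneys of 1 group differed more than the groups did.

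A further set joined exchangers linked to growth or stress with the facilitative carrier LAT3 and the nucleobase carrier Slc43a3. Log2 fold changes were positive in 5 of these 6 members (53.2% of all genes), with a median of 0.19. None had an unadjusted p under 0.05, where 9.86% of all genes were higher and 11.3% lower. Slc43a3 was at 28.2, 31.8, 45.5 and 21.1 CPM in DKO, and at 30.4, 15 and 23.3 CPM in WT. Slc1a5, the glutamine carrier ASCT2, was at 16.2, 18.8, 21.1 and 19 CPM in DKO, and at 19.8, 11.6 and 18.5 CPM in WT. The groups overlapped in both. Slc1a4 (ASCT1) was at 7.59 ± 1.83 CPM in DKO (SD, n = 4) and 7.28 ± 0.757 CPM in WT (SD, n = 3), and Slc43a1 (LAT3) had a log2 fold change of 0.82 (SE 0.44). Slc7a5 (LAT1) was scarce, at 0.704 to 1.18 CPM in DKO and 0.529 to 1.09 CPM in WT. Slc7a11, the cystine and glutamate exchanger xCT, was at 0 to 0.571 CPM in DKO and 0 to 0.953 CPM in WT, and it shares 585 bases with the abundant Tuba1b.

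**Figure D3:**
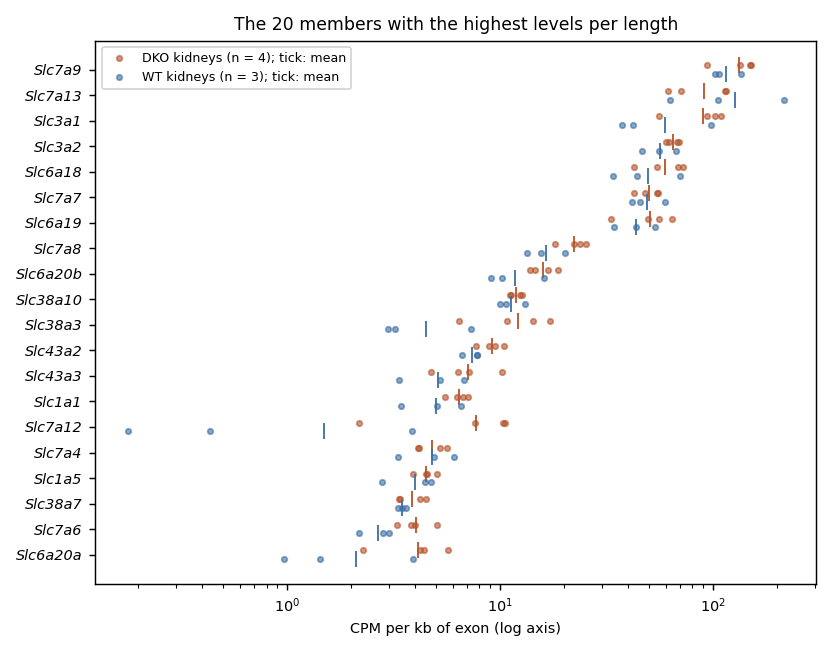
Level per kilobase of exon (CPM per kb, log axis) of the 20 members with the highest levels. Points are kidneys of DKO (n = 4, upper row of each gene) and WT (n = 3, lower row), and ticks are means. The members fall into a top set of 7 carriers with DKO means of at least 50.1 CPM per kb and a long tail that starts with Slc7a8.

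Per length, Slc7a9 and Slc7a13 were the most abundant members. Slc7a9 had 132 ± 26.4 CPM per kb in DKO (SD, n = 4) and 115 ± 18.1 in WT (SD, n = 3), and Slc7a13 had 90.5 ± 28.2 in DKO and 127 ± 78.3 in WT. Slc3a1, Slc3a2, Slc6a18, Slc6a19 and Slc7a7 followed, with means between 50.1 and 90 CPM per kb in DKO and between 43.6 and 59.2 in WT. Within DKO the ranges of neighbours in this order overlapped down to Slc7a7, and within WT they overlapped from Slc3a1 down to Slc6a19. A gap then separated them from Slc7a8, at 22.3 ± 3.15 CPM per kb in DKO and 16.4 ± 3.45 in WT, in both groups. Slc38a3 ranked 10 in DKO, with 12.1 CPM per kb, and 15 in WT, with 4.48 CPM per kb. The lowest mean was that of Slc7a11 in DKO, at 0.0235 CPM per kb, and that of Slc7a15 in WT, at 0.0163 CPM per kb.

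The kidneys of a group were ordered in the same way in several of the most abundant carriers, a pattern noted after the values were seen. In 11 of 39 tested members (28.2%) DKO replicate 4 was the lowest DKO kidney while WT replicate 2 was the highest WT kidney, as in 10.7% of all genes. These members were Slc1a1, Slc1a2, Slc38a3, Slc3a1, Slc3a2, Slc6a18, Slc6a20a, Slc6a20b, Slc7a7, Slc7a9 and Slc7a12. All 11 had positive log2 fold changes, as had 81.9% of all genes with this order of kidneys. Prlr, the prolactin receptor and a gene with higher expression in female mouse kidney, had the same order, at 80.9, 78.5, 89.5 and 19.1 CPM in DKO, and 5.66, 40.3 and 6.25 CPM in WT. Abcc3, another such gene, did not have it, with 4.09, 3.62, 5.13 and 1.55 CPM in DKO, and 1.76, 1.53 and 1.18 CPM in WT. What sets these kidneys apart was not tested.

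**Figure D4:**
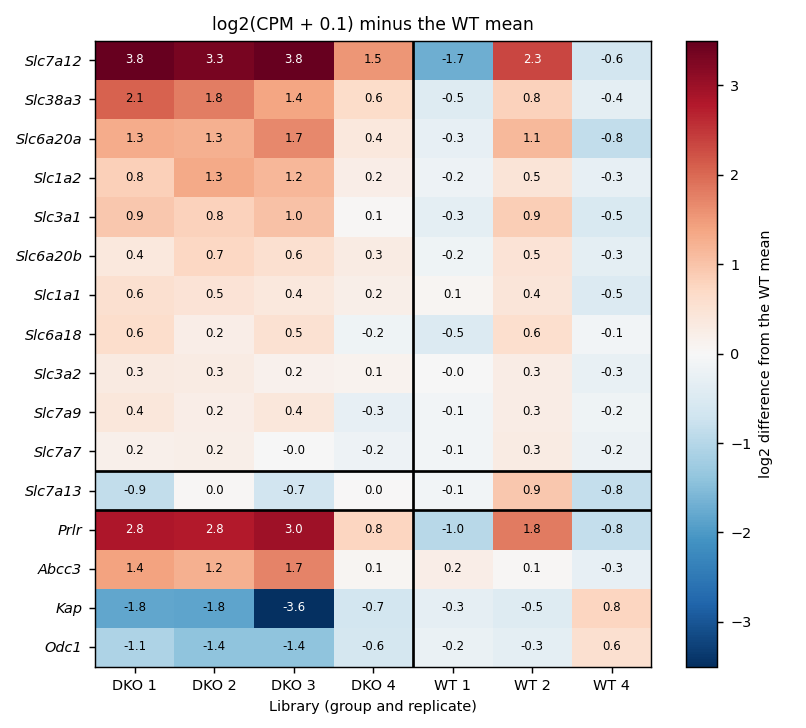
Level of single kidneys as log2(CPM + 0.1) minus the WT mean, for the 11 members in which DKO replicate 4 was the lowest DKO kidney and WT replicate 2 the highest WT kidney (top), for Slc7a13 (middle) and for 4 genes linked to sex hormones (bottom). Columns are kidneys, DKO left of WT. In Slc7a12 the DKO kidneys range from 1.54 to 3.78 and WT replicate 2 reaches 2.35.

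Fold changes of all genes ran with gene length in these libraries, and the transporter transcripts are longer than most. The median exon length of the tested members was 5005 nt, against 4008 nt for all genes. Over deciles of exon length, the median log2 fold change of all genes ran between -0.40 in the shortest and 0.30 in the longest. Among members shorter than their median length 17 of 19 had positive log2 fold changes, against 41.2% of the genes of that length, and among longer members 17 of 20, against 72.9%. With the trend on length and GC content removed, the member median was 0.18, and that of all genes was -0.014. In that fit 4 members had an unadjusted p under 0.05 and higher levels in DKO (5.66% of all genes). They were Slc36a2 (log2 fold change 0.93), Slc38a3 (1.29), Slc7a6 (0.53) and Slc7a12 (2.69). Slc38a1 (-0.75) had lower levels in DKO at that p (8.7% of all genes).

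**Figure D5:**
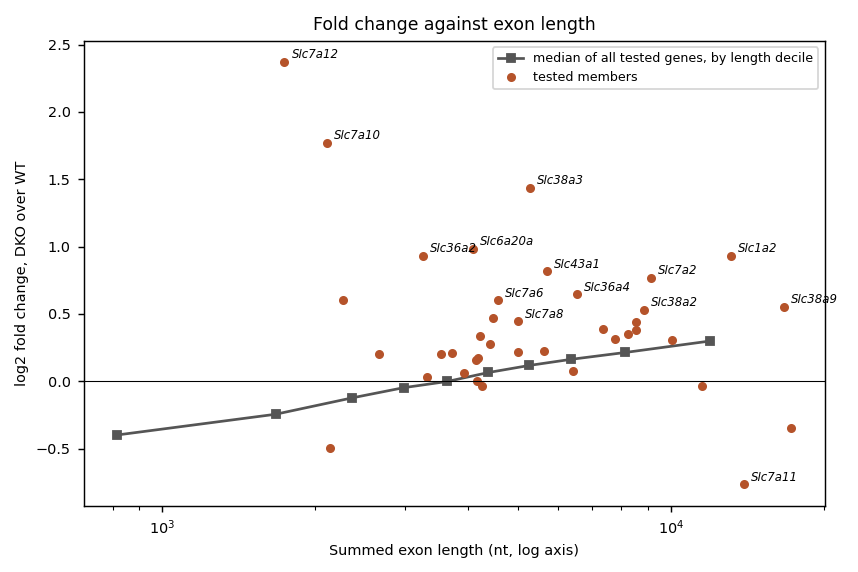
The log2 fold change of DKO over WT (vertical axis) against summed exon length in nt (log axis) for the 39 tested members (circles), with the median of all tested genes in each decile of length (squares). The squares climb between -0.40 and 0.30, and most members, the short Slc7a12 among them, lie above them.

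Relatives of the members that handle amine compounds showed a similar share of positive values. Among 11 carriers of amines and amino acid derivatives 10 had positive log2 fold changes (53.2% of all genes), with a median of 0.30. At an unadjusted p under 0.05, 3 were higher in DKO (9.86% of all genes) and 0 lower (11.3%). Slc6a6, the taurine carrier, was at 148, 144, 255 and 133 CPM in DKO, and at 78.1, 102 and 87.7 CPM in WT, with no overlap. Its log2 fold change was 0.93 (SE 0.24), with an edgeR adjusted p of 0.163 and a DESeq2 adjusted p of 0.0263 (0.0263 to 0.494 over the alternatives). Slc6a12 and Slc6a13, carriers of betaine and GABA, had log2 fold changes of 1.04 (SE 0.42) and 0.57 (SE 0.25). DKO replicate 3 had 13.5 CPM of Slc6a12, against 3.26 to 5.72 CPM in the other DKO kidneys and 2.86 to 3.79 CPM in WT, and without it the log2 fold change was 0.53.

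Of the partners of luminal carriers and the peptidases that release amino acids, 10 were tested. Log2 fold changes were positive in 6 (53.2% of all genes) and negative in 4. Cltrn, the collectrin that Slc6a18 and Slc6a19 need to reach the kidney brush border, was at 1147, 664, 433 and 873 CPM in DKO, and at 935, 1184 and 2241 CPM in WT. DKO replicate 1 lay within the WT range, and the log2 fold change was -0.90 (SE 0.36), while both carriers had values slightly above 0. Without WT replicate 4, the kidney with the highest value, the log2 fold change of Cltrn was -0.45. With the trend on exon length and GC content removed it was -0.60, with an edgeR unadjusted p of 0.13. Dpep1, a dipeptidase, had a log2 fold change of -0.48 (SE 0.21), and Anpep, aminopeptidase N, one of 0.67 (SE 0.20) with 36 to 53.5 CPM in DKO and 22.7 to 34.8 CPM in WT. The edgeR adjusted p of these 3 lay between 0.163 and 0.22.

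Genes of the ATF4 response to amino acid shortage, which in many cells includes Slc7a11, Slc7a5 and Slc38a2, were divided. Of 12 such genes 7 had positive (53.2% of all genes) and 5 negative log2 fold changes, with a median of 0.068. At an unadjusted p under 0.05, 2 were higher in DKO (9.86% of all genes) and 1 lower (11.3%). Chac1, a glutathione-degrading enzyme, was at 4.14 ± 0.845 CPM in DKO (SD, n = 4) and 1.96 ± 0.918 CPM in WT (SD, n = 3), with a DESeq2 adjusted p of 0.0488 (0.0488 to 0.494 over the alternatives). Sesn2, a leucine sensor, had a log2 fold change of 0.62 (SE 0.22), and Psat1, an enzyme of serine synthesis, one of -0.55 (SE 0.23).

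Of 18 genes of amino acid metabolism in the proximal tubule 13 had positive log2 fold changes (53.2% of all genes), with a median of 0.17. At an unadjusted p under 0.05, 3 were higher in DKO (9.86% of all genes) and 0 lower (11.3%). Gldc, of the glycine cleavage system, was at 79.5, 48.7, 72.7 and 47.9 CPM in DKO, and at 30.7, 41 and 30.7 CPM in WT, with a DESeq2 adjusted p of 0.03 (0.03 to 0.494 over the alternatives). Arg2, an arginase, and Gpt, an alanine aminotransferase, had log2 fold changes of 0.92 (SE 0.36) and 0.54 (SE 0.22).

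Lists of genes that respond to sex hormones were set beside Slc7a12. Of 12 androgen-responsive kidney genes 10 had negative log2 fold changes (median -0.76), with 0 higher and 4 lower in DKO at an unadjusted p under 0.05 (11.3% of all genes were lower at that p) and 5 below WT without overlap (9.04% of all genes). Odc1, the first enzyme of polyamine synthesis, was at 31.3, 24.9, 24.9 and 43.4 CPM in DKO, and at 56.9, 52.3 and 98.5 CPM in WT. DESeq2 called Odc1 (adjusted p 0.0163) and Hsd11b1 (adjusted p 0.025), and edgeR gave each an adjusted p of 0.163, with an upper end of 0.494 over the alternatives. Kap and Slc22a30 were also followed from this list. With 1 library left out their log2 fold changes were -2.31 to -1.26 for Kap and -0.93 to -0.52 for Slc22a30. Of 10 genes listed as higher in female mouse kidney 8 had positive log2 fold changes (53.2% of all genes), with a median of 0.47. Only Abcc3 had an unadjusted p under 0.05, with higher levels in DKO (9.86% of all genes). The place of Cyp2d9 in this list is uncertain. All kidneys were male, so neither list was checked in these data. The part of these genes in the level of Slc7a12 was not tested.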

How the data were processed

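Total RNA of whole kidneys was sequenced from unstranded tagmentation libraries on a HiSeq instrument, per the labels' protocols. Reads were aligned with STAR 2.5.2a, per the submitters' processing notes, which also list edgeR, limma, DESeq2, GRCm38 (mm10) and GRCh38 without a role. The read counter and annotation release were not given in the sources used. The authors deposited raw counts per gene, a filtered subset of those counts, and a TMM-scaled CPM signal table, which was used for gene symbols only. In the raw counts, 24 rows of added sequences (at most 0.000697% of any library) were left out. Total counts ranged from 18330929 to 24259400.

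CPM was computed from the raw counts on TMM-scaled library sizes. DKO was tested against WT with edgeR 4.0.16 (R 4.3.3, robust quasi-likelihood F test, two-sided, filterByExpr with a minimum count of 10 and a minimum total of 15) and Benjamini-Hochberg adjustment over 15394 genes, at a threshold of 0.05. Standard errors came from the F statistic. Alternatives were DESeq2 1.42.0, limma-voom (limma 3.58.1), DESeq2 size factors, no filter, a replicate block, removal of a trend on exon length and GC content (mgcv 1.9.3, offsets) and leaving out each library. DESeq2 with each library left out was added after the data were seen. Gene positions and exon lengths came from GENCODE M21 (48349 of 48709 genes matched), and shared sequence from blastn 2.17.0. The tests were tested on simulated data. Libraries of a group differed by 40.8 to 97.5 in chi-square per gene, far above sampling noise, so each was counted as 1 animal.

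The members and all gene lists were chosen with earlier results of these data known. Values in every kidney were given for members called, for those at an unadjusted p under 0.05 and for the most abundant 2 of each role. From each other list up to 4 genes called or at that p were followed, many with means, ranges or fold changes only. Genes given with values in every kidney outside this rule (Slc3a1, Slc6a19, Slc6a20a, Slc6a20b, Slc7a10, Slc7a13, Slc7a2, Prlr) were chosen after their values were seen. Intervals between animals are given as SD, and the libraries carry no molecular identifiers.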

Additional observations from a re-analysis of the deposited data

Results flagged for a closer look

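In 3 of 59 checks of the DKO group, 1 kidney stood far from the other 3, where chance flags about 1 in 20. Slc38a4 reached 2.51 CPM in DKO replicate 3, Slc7a10, a carrier of small neutral amino acids, reached 2.73 CPM in DKO replicate 1, and Slc6a6 reached 255 CPM in DKO replicate 3. Among the added sequences, which no comparison used, the row for the neomycin resistance cassette had 73, 75, 81 and 125 reads in DKO replicates 1 to 4 and 0 in each WT kidney. The row for the LacZ reporter had 21, 21, 16 and 32 reads in DKO replicates 1 to 4 and at most 5 in a WT kidney.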

How the results depend on the processing

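The 39 tested members and the named genes of other lists, 56 genes in all, were followed through 13 alternatives, and 47 kept the direction of their log2 fold change in all of them. Where edgeR called 0 genes and 0 members, DESeq2 called 616 genes and 2 members, and edgeR with no low-count filter called 66 genes and 0 members. Leaving out 1 library gave 0 to 7 called genes and 0 members in edgeR. In DESeq2 it gave 1412, 4, 26 and 458 genes without DKO replicates 1 to 4, and 561, 1196 and 10 genes without WT replicates 1, 2 and 4. The members among them numbered 5, 0, 1 and 3 without DKO replicates 1 to 4, and 2, 6 and 0 without WT replicates 1, 2 and 4. Slc36a2 and Slc38a3 had no DESeq2 adjusted p without DKO replicate 2, nor had Slc36a2 without DKO replicate 3. The 8 members at an unadjusted p under 0.05 and higher in DKO became 4 with the length and GC trend removed, 3 of them from the 8, and 5 to 12 with 1 library left out, where 5.63% to 12.5% of all genes were higher at that p. The 0 lower members became 1 with the trend removed and 0 to 1 with 1 library left out, Slc7a13 without WT replicate 4 (4.45% of all genes lower). In all 7 edgeR fits that left out a library, 4 members stayed at that p, namely Slc1a2, Slc36a2, Slc38a3 and Slc38a9. These 4 were among the 8 picked by that p, and the share of all genes that stayed at it was not counted. With the length and GC trend removed, the edgeR unadjusted p was 0.0618 for Slc1a2 and 0.299 for Slc38a9. The member median of 0.34 was 0.18 with the trend removed.

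The 9 genes that changed direction had small values, Slc7a13 apart. Slc38a10 was at -0.14 with the trend removed. Slc7a4 was at -0.012 with DESeq2 and with DESeq2 size factors, and at -0.069 with the trend removed. With 1 library left out the ranges were -0.082 to 0.18 for Slc1a4, -0.038 to 0.30 for Slc1a5, -0.014 to 0.19 for Slc38a10, -0.26 to 0.15 for Slc38a4, -0.41 to 0.15 for Slc7a1, -0.82 to 0.10 for Slc7a13, -0.20 to 0.20 for Slc7a4, -0.043 to 0.40 for Slc7a5 and -0.071 to 0.19 for Slc7a7. The causes were not tested.

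Same-numbered kidneys correlated in their deviations from the group means at -0.13, 0.16 and 0.14 (replicates 1, 2 and 4), so the numbers were not taken as pairs. With the replicate block, edgeR called 0 genes and 0 members, 9 members had an unadjusted p under 0.05 and higher levels in DKO (7.54% of all genes), and Slc7a1 was at 0.041. With 3 and 4 kidneys a group, spread between animals limits what can be called, and members below about 1 CPM rest on few reads.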
